A study of Mus musculus with 4 samples.

Results

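Skeletal muscle contractile genes are described here in mammary tumours of mice that carry MMTV-cdc25a and MMTV-neu together, set against tumours with MMTV-neu alone. The list held 35 genes of the muscle fibre, and every one had at least 1 probe on the array, 53 probes in all among 41174 outside the control spots. Of the 35, 24 were found by the array's own gene name or a former symbol. A further 7 genes (Acta1, Des, Ldb3, Mb, Mybpc2, Myl1 and Ryr1) were found through a RefSeq accession, and 4 (Cacna1s, Myh4, Neb and Tpm2) only through the description of their probe. The Myh4 probes were recognised by description after their values had been seen. Probes were kept if 2 or more of the 4 arrays measured them well above background in either channel, and 33 of the 35 genes had such a probe. The muscle calsequestrin Casq1 and the muscle glycogen phosphorylase Pygm did not, and their ratios, within 0.13 of 0 in both mouse pairs, are not interpreted.

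The Cdc25a;neu group, also called double-transgenic below, consisted of 2 female FVB/N mice with MMTV-cdc25a;MMTV-neu. The neu group consisted of 2 female FVB/N mice with MMTV-neu. All 4 mice were 26 weeks old and their mammary tumours were at the early T1 stage, under 1 cm. The mammary tumour virus promoter (MMTV) drives both transgenes, so the neu transgene is present in every tumour, and each genotype rests on 2 mice. Each Cdc25a;neu tumour shared its arrays with 1 neu tumour. The labels number these pairs 1 and 2. Every pair was hybridised on 2 arrays with the dyes exchanged, and these 2 arrays hold the same RNA, so they show technical spread only.

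Ratios are log2 of Cdc25a;neu over neu, so that -1 is a 2-fold lower signal in the double-transgenic tumour. Where a probe is given 2 ratios without further words, the first is that of pair 1 and the second that of pair 2. A tumour's level is the log2 channel signal of a probe after normalization, averaged over both dyes, and was compared only between tumours for the same probe. The share of spots well above background in a channel ran between 78.5% and 92.2%. The ratios of the arrays of a pair correlated at 0.649 in pair 1 and 0.758 in pair 2, and those of arrays from different pairs at 0.209 to 0.374, as a description over genes measured on shared probes. Cdc25a itself gave levels of 7.29 and 7.41 in the Cdc25a;neu tumours of pairs 1 and 2, against 7.2 and 7.4 in the neu tumours, and its ratio averaged 0.05 ± 0.06 (SD, n = 2; adjusted p = 0.781 by limma). No source used here says whether its probe lies inside the transgene, so this value checks no label. Erbb2, the gene of which neu is the rat form, gave ratios of 0.45 and 0.84.

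Skeletal muscle contracts when myosin of the thick filament pulls on actin of the thin filament, within repeating sarcomeres that are anchored at Z-discs. Calcium released from the sarcoplasmic reticulum opens the thin filament through troponin and tropomyosin. Fast-twitch and slow-twitch fibres build the same machine from different genes, so that each fibre type has its own myosin heavy and light chains and its own troponins. Most of these proteins are made in muscle fibres and not in mammary epithelium, and the mammary fat pad lies close to muscle of the body wall and skin.

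Promoters of fast-fibre genes carry short motifs bound by muscle transcription factors. The promoters of 5 members with low ratios in pair 2 and of 2 slow troponin genes are shown as background. Whether the motifs bear on the ratios was not tested. Each is the 250 bases before the gene's start, read 5′ to 3′ on the gene's strand, from RefSeq on mouse build GRCm38.p6. Capitals mark matches, on either strand, to the E-box CANNTG bound by MyoD-family factors, the MCAT element CATTCC bound by TEAD factors, the MEF2 site and the CArG box of serum response factor.
Myh4, chr11:67237562-67237811, plus strand: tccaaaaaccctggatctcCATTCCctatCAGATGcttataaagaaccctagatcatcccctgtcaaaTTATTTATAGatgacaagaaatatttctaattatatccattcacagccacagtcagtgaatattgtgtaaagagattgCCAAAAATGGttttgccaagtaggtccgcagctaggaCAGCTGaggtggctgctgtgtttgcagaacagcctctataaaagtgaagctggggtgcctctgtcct
Myl1, chr1:66945057-66945306, minus strand: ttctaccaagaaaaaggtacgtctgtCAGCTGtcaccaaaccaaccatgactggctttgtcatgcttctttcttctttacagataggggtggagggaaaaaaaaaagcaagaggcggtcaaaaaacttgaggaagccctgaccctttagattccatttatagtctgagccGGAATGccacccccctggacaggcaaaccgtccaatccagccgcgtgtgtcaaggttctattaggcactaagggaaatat
Mybpc2, chr7:44524670-44524919, minus strand: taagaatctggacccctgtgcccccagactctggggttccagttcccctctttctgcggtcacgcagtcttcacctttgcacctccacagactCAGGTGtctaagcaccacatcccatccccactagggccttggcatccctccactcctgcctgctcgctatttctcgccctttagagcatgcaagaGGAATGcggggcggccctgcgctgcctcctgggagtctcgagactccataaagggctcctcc
Tnnc2, chr2:164779735-164779984, minus strand: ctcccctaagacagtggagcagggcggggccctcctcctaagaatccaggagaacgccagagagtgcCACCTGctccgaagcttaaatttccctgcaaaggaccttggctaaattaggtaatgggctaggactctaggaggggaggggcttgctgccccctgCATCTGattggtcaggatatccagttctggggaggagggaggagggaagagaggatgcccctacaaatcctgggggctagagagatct
Eno3, chr11:70656926-70657175, plus strand: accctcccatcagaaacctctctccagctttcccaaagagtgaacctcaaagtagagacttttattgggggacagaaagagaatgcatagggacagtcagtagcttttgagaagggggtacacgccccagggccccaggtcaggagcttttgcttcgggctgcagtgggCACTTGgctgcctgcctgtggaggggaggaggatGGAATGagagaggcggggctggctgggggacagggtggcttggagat
Tnnt1, chr7:4515976-4516225, minus strand: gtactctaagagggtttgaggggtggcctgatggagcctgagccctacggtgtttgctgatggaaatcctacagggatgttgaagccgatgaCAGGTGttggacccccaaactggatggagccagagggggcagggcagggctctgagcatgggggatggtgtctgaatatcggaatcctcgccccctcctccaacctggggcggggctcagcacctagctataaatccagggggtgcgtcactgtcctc
Tnnc1, chr14:31208062-31208311, plus strand: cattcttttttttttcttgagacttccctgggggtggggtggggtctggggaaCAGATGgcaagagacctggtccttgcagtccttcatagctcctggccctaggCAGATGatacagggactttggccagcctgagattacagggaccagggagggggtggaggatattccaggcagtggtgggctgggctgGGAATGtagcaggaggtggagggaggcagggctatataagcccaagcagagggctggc

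The Myh4 promoter held 2 E-boxes, 1 MCAT element, 1 MEF2 site and 1 CArG box in this window, and Myl1 held 1 E-box and 1 MCAT element. The other promoters with low ratios held E-boxes too, 1 in Mybpc2, 2 in Tnnc2 and 1 in Eno3. Both slow genes also held E-boxes, 1 in Tnnt1 and 2 in Tnnc1, so the presence of this motif did not set the members with low ratios apart. Over the 24 measured members with a promoter in the RefSeq table, 19 held a CANNTG E-box (79.2%), against 66% of all 27025 promoters of that length. The form CAGCTG, a case of the same motif, was in 12 of 24 (50%), against 12.8% of all promoters. MCAT elements were in 8 of 24 (33.3% against 12.6%), MEF2 sites in 4 (16.7% against 3.01%) and CArG boxes in 3 (12.5% against 1.4%). These are matches of letters in a short window, with no test.

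In pair 2, 16 of the 33 measured members were lower by over 0.4 in the double-transgenic tumour than in its neu partner. Another 16 lay within 0.3 of 0, and 1 was higher by over 0.4. In pair 1 all 33 lay within 0.3 of 0. At least 2-fold lower signals on both arrays of pair 2 were measured for 7 of the 31 members with a value on both arrays, Pvalb aside, against 0.418% of all 32565 genes. These were the myosin chains Myh4 and Myl1, the myosin-binding protein Mybpc2, the troponins Tnnt3 and Tnni2, the Z-disc protein Tcap and the enolase Eno3. The calcium buffer Pvalb also had a fitted ratio below -1, but it passed the filter on dim probes only through the neu tumour of pair 2, where it was high, and its signal there bounds the difference at no less than 1.85-fold. Counts and medians below include it unless they say otherwise, which makes the count 8 of 32. In pair 1 no member of 33 was 2-fold lower on both arrays, against 0.288% of all genes. No member was 2-fold higher on both arrays in either pair, against 0.276% of all genes in pair 1 and 0.758% in pair 2. The median ratio of the 33 members was 0.04 in pair 1 and -0.25 in pair 2, while that of all genes was 0.00 in both. Without Pvalb the pair 2 median was -0.24. It was -0.42 without the array of pair 2 that has Cdc25a;neu in Cy3, -0.72 in the scanner's own ratio and -0.78 in the authors' deposited table, so its size depends on the processing. For the 22 measured members found by the array's own or former gene name, the pair 2 median was -0.48 and 5 of 21 were 2-fold lower.

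**Figure D1:**
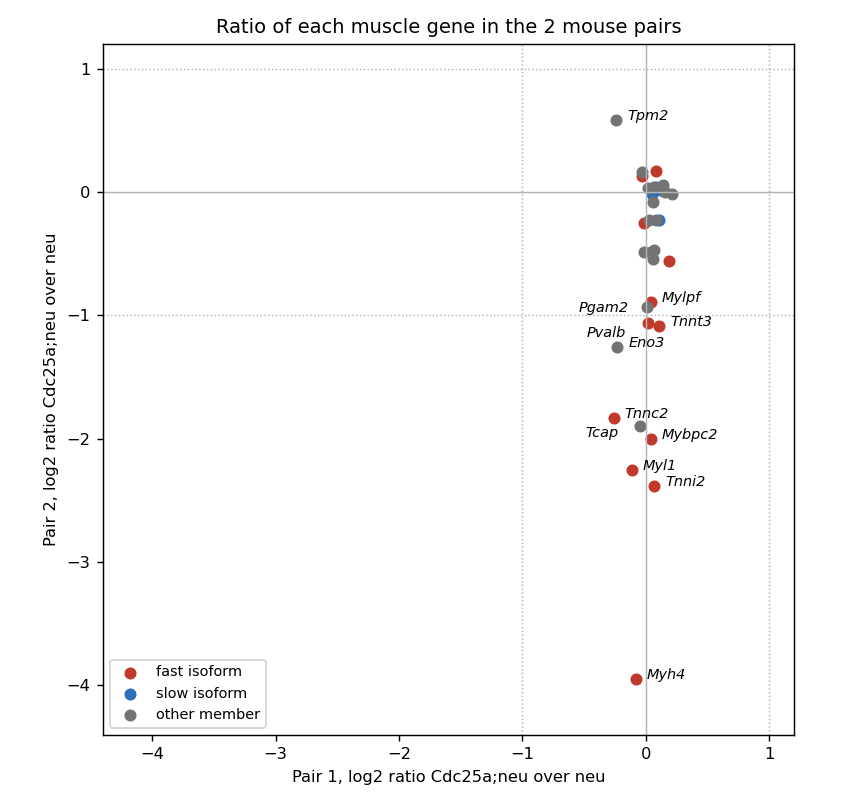
Each point is 1 muscle gene, with its log2 ratio of Cdc25a;neu over neu in pair 1 on the horizontal axis and in pair 2 on the vertical axis, each the mean of 2 arrays (1 array for Tnnc2 in pair 2). Red points are fast isoforms, blue points slow isoforms and grey points other members, and dotted lines mark 2-fold. All 33 points lie between -0.26 and 0.21 in pair 1, while in pair 2 they spread between -3.95 and 0.58.

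The direction on single arrays showed the same split. On both arrays of pair 2, 21 of 32 members were lower in the Cdc25a;neu tumour and 5 were higher, against 31.6% and 34.8% of all genes. Without Pvalb, 20 of 31 were lower and 5 higher. In pair 1, 5 of 33 members were lower on both arrays and 14 were higher, against 28.1% and 29.1% of all genes. The ratios of the members had an SD among themselves of 0.11 in pair 1 and 0.97 in pair 2, compared with 0.22 and 0.28 over all genes. The sign was negative in both pairs for 7 members, positive in both for 6 and opposite between the pairs for 20. Whether the pairs differed could not be tested, since each holds 1 mouse of each genotype.

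Across the 2 pairs, no member passed the test. With limma on the 2 pair ratios and Benjamini-Hochberg adjustment over 32649 genes, adjusted p for the members lay between 0.564 and 0.967. No gene of the array passed at 0.05 either (0% lower, 0% higher). At an unadjusted p under 0.05, limma called 1875 genes lower (5.74%) and 1274 higher (3.9%), with none of the members among them. With median centring of each array in place of loess, limma called 937 genes and 8 members (Myh4, Myl1, Tnni2, Tnnc2, Tcap, Mybpc2, Eno3 and Pvalb), so the count of members past the test depends on the normalization. The differences given below are therefore those of single mouse pairs, with the spread of dye-swapped arrays as their only replicate error. For the members that spread was small: ratios from the exchanged dyes differed by a median of 0.12 in pair 1 and 0.09 in pair 2, and by at most 0.34 and 0.56.

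The tumour that stood apart in pair 2 was the neu tumour. It had the highest level of all 4 tumours for 19 of 33 members, against 22.7% of all genes. Pvalb is among the 19, and for it the filter fixed this in advance. The Cdc25a;neu tumour of pair 1 was highest for 10 members, that of pair 2 for 4, and the neu tumour of pair 1 for none. For 7 members (Myh4, Tnni2, Myl1, Mybpc2, Tnnc2, Tcap and Eno3) the neu tumour of pair 2 was at least 2-fold above the next tumour, a gap seen for 24 of all 32652 genes and transcripts (0.0735%). Summed over the 33 members on the linear scale, the signal was 4213 and 4387 in the Cdc25a;neu tumours of pairs 1 and 2, against 4202 and 11840 in the neu tumours. Without Pvalb the sums were 4154 and 4334 in the Cdc25a;neu tumours, against 4144 and 11730 in the neu tumours. Without the members named by description, Myh4 among them, the sums were 3793 and 3712 in the Cdc25a;neu tumours, against 3767 and 7622 in the neu tumours. The neu tumour of pair 2 was the high one, and the other 3 sums were close to each other. In whole tumours, fewer muscle cells and less muscle RNA per cell cannot be told apart.

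**Figure D2:**
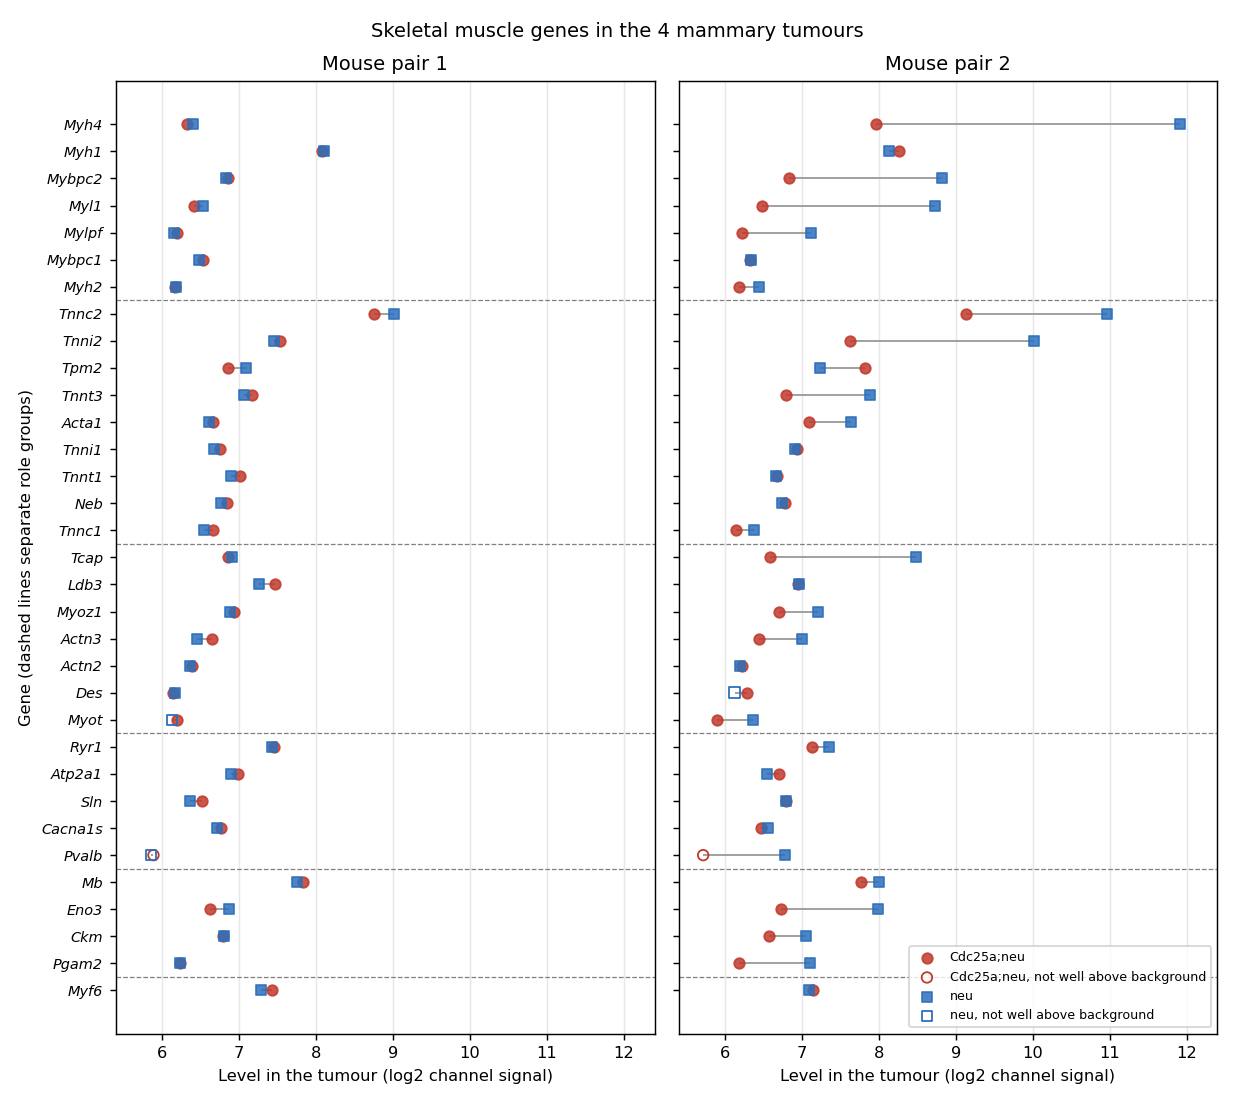
Level of each measured muscle gene (log2 channel signal, horizontal axis) in the tumours of pair 1 on the left and pair 2 on the right, with red circles for Cdc25a;neu, blue squares for neu, open symbols where the tumour was not well above background on either array, and a line joining the 2 tumours of a pair. Dashed lines separate thick filament, thin filament, Z-disc, calcium, energy and transcription factor genes. In pair 2 the neu squares of Myh4, Tnnc2 and Tnni2 lie at 11.92, 10.96 and 10.02, to the right of every other tumour.

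Both Cdc25a;neu tumours lay below both neu tumours for 4 members, Myl1, Tcap, Ckm and Eno3, which is 4 of 33 against 11.2% of all genes, and both lay above for 1, Neb, against 8.64%. The count in the lower direction is close to that background and is no result about the members.

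Of the thick filament genes, 3 of 7 were 2-fold lower on both arrays of pair 2, against 0.418% of all genes. This count includes Myh4, whose probes were recognised after their values had been seen. The median ratio was -0.01 in pair 1 and -0.89 in pair 2. Myh4 encodes the IIB myosin heavy chain, the motor of the fastest mouse fibres. Its level was 6.33 in the Cdc25a;neu tumour of pair 1 and 7.97 in that of pair 2, against 6.41 and 11.92 in the neu tumours. The neu tumour of pair 2 was far above the rest, the Cdc25a;neu tumour of the same pair was the next, and both tumours of pair 1 were low, so the genotypes overlapped. The ratios were -0.09 and -0.07 on the arrays of pair 1 and -3.67 and -4.23 on those of pair 2. That is a 15.5-fold lower signal in the Cdc25a;neu tumour of pair 2, and it ranked as number 2 from the lowest among all genes in that pair. The mean over both pairs was -2.01 ± 2.74 (SD, n = 2; limma adjusted p = 0.649). A further probe described as the same chain gave -3.83 in pair 2 and was not well above background in either tumour of pair 1.

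Myl1, the alkali light chain of fast myosin, was at 6.42 and 6.48 in the Cdc25a;neu tumours of pairs 1 and 2, against 6.53 and 8.73 in the neu tumours. Both double-transgenic tumours lay below both neu tumours, by little in pair 1. Its ratios were -0.28 and 0.06 on the arrays of pair 1 and -2.34 and -2.17 on those of pair 2, a 4.76-fold lower signal in pair 2, with a mean of -1.18 ± 1.51 (SD, n = 2; limma adjusted p = 0.636). Mybpc2, the fast form of myosin-binding protein C, was at 6.86 and 6.83 in the Cdc25a;neu tumours, against 6.83 and 8.82 in the neu tumours. The other 3 tumours thus lay close together and the neu tumour of pair 2 exceeded it, 3.99-fold above its partner. The arrays gave 0.03 and 0.04 on the pair 1 arrays and -2.09 and -1.90 on those of pair 2 (mean -0.98 ± 1.44, n = 2; limma adjusted p = 0.670).

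Mylpf, the phosphorylatable light chain of fast myosin, had a ratio of 0.04 in pair 1 and -0.89 in pair 2, just outside the 2-fold limit. Mybpc1, the slow form of myosin-binding protein C, lay at 0.05 and -0.02. Myh1, the IIX heavy chain, was by its own-name probe at 8.08 and 8.27 in the Cdc25a;neu tumours, against 8.10 and 8.14 in the neu tumours, and these levels overlapped. That probe gave ratios of -0.03 in pair 1 and 0.13 in pair 2 (mean 0.05 ± 0.11, n = 2; limma adjusted p = 0.813). A dimmer probe described as the IIX chain disagreed with it, at -1.60 in pair 2, and was not well above background in pair 1. Myh2, the IIA heavy chain, gave -0.01 and -0.25, a further probe lay at 0.06 and -0.19, and the third was well above background in the Cdc25a;neu tumour of pair 2 alone. Heavy chain genes are close in sequence, and how far a probe for one of them also binds another was not tested.

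Another transcript, chosen after its values were seen and outside the member list, is described on the array as a perinatal skeletal myosin heavy chain. It stood at 6.25 and 6.85 in the Cdc25a;neu tumours of pairs 1 and 2, against 6.18 and 11.27 in the neu tumours. Its ratio of -4.43 in pair 2 was the lowest of all genes, a 21.5-fold lower signal in the Cdc25a;neu tumour. Pair 1 gave 0.08 from signals at or near background (limma adjusted p = 0.669). The probe named for the perinatal chain gene, Myh8, disagreed with it, at 0.10 and 0.29. Myh8 levels were 6.84 and 7.07 in the Cdc25a;neu tumours, against 6.74 and 6.78 in the neu tumours. Which of the 2 probes reads the perinatal chain was not tested.

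Thin filament genes divided between fast and slow forms. Of 8 members with a value on both arrays of pair 2, 2 were 2-fold lower, against 0.418% of all genes, and the median of the 9 measured was 0.07 in pair 1 and -0.23 in pair 2. Tnni2, the inhibitory troponin of fast fibres, was at 7.53 and 7.63 in the Cdc25a;neu tumours of pairs 1 and 2, against 7.46 and 10.02 in the neu tumours. As for Mybpc2, 3 tumours lay together and the neu tumour of pair 2 was high. The ratios were -0.02 and 0.16 on the pair 1 arrays and -2.36 and -2.41 on those of pair 2, where the Cdc25a;neu signal was 5.22-fold lower (mean -1.16 ± 1.73, n = 2; limma adjusted p = 0.675).

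Tnnc2 is the calcium-binding troponin of fast fibres. Its levels were 8.75 and 9.13 in the Cdc25a;neu tumours, against 9.01 and 10.96 in the neu tumours, and the genotypes overlapped. 1 array of pair 2 was dropped for this probe by its outlier flag, and the array left gave -1.83, or 3.56-fold lower, while pair 1 gave -0.36 and -0.16. The mean was -1.05 ± 1.11 (SD, n = 2; limma adjusted p = 0.591). Tnnt3, the tropomyosin-binding troponin of fast fibres, gave 0.11 in pair 1 and -1.09 in pair 2, and its further probe, not well above background in pair 1, gave -1.51 in pair 2.

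The slow counterparts did not share these values. Tnnt1 lay at 0.12 and 0.02, Tnni1 at 0.08 and 0.04, and Tnnc1, which heart muscle also uses, at 0.11 and -0.23. Acta1, skeletal alpha-actin, gave 0.06 and -0.54. Neb, the giant protein that spans the thin filament, gave 0.07 and 0.04, with 1 of its 3 other probes at -0.01 and -0.36.

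Tpm2, beta-tropomyosin, was the single member with a ratio above 0.4 in pair 2. Its levels were 6.86 and 7.82 in the Cdc25a;neu tumours, against 7.09 and 7.24 in the neu tumours, so the double-transgenic tumour was the lower one in pair 1 and the higher one in pair 2. The arrays gave -0.30 and -0.17 on the pair 1 arrays and 0.49 and 0.68 on those of pair 2, and the mean was 0.17 ± 0.58 (SD, n = 2; limma adjusted p = 0.848). A further Tpm2 probe gave -0.27 and 0.62. Smooth muscle expresses Tpm2 as well. The 14 genes of smooth muscle and myoepithelium had a pair 2 median of 0.10, with 9 higher and 2 lower on both arrays. The 3 brightest genes of that list gave 0.36 and 1.40 (Tagln), -0.13 and 0.79 (Acta2) and -0.08 and 0.64 (Actg2), but their dye-swapped arrays of pair 2 were far apart, at 2.12 and 0.68, 1.40 and 0.17, and 1.07 and 0.22. Other genes of the list lay near 0 in pair 2, such as Myh11 at 0.04, Cnn1 at -0.04 and Smtn at -0.10. The part of smooth muscle in the Tpm2 value was not tested. A transcript described as tropomyosin 2 beta, whose accession the array lists with Tpm1 and which was chosen after its values were seen, went the other way in pair 2, at 0.15 and -1.28.

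Among the 7 Z-disc and cytoskeletal genes, the medians were 0.04 in pair 1 and -0.47 in pair 2, and 5 were lower on both arrays of pair 2, against 31.6% of all genes. Tcap, or telethonin, caps titin at the Z-disc. It was at 6.86 and 6.59 in the Cdc25a;neu tumours, against 6.91 and 8.49 in the neu tumours, and the gap lay almost wholly in pair 2. The arrays gave -0.14 and 0.04 on the pair 1 arrays and -2.11 and -1.69 on those of pair 2, a 3.73-fold lower signal (mean -0.97 ± 1.31, n = 2; limma adjusted p = 0.646). Actn3, the alpha-actinin of fast fibres, gave 0.19 and -0.56, while Actn2, its partner in all fibres and in heart, gave 0.02 and 0.03.

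The calcineurin-binding protein Myoz1 gave 0.04 and -0.49, but its other probe 0.06 and 0.00. Myotilin (Myot), from a dim probe, gave 0.07 and -0.47. Ldb3, the PDZ and LIM domain protein also called cypher, was at 7.47 and 6.95 in the Cdc25a;neu tumours, against 7.26 and 6.97 in the neu tumours. By this probe it was higher in pair 1 than in pair 2 in both genotypes. The ratios were 0.24 and 0.18 on the arrays of pair 1 and -0.02 on both of pair 2. The mean was 0.10 ± 0.16 (SD, n = 2, limma adjusted p = 0.739). A brighter probe, named by description, was higher in pair 2, at 7.95 and 8.27 in the Cdc25a;neu tumours, against 8.01 and 8.19 in the neu tumours. Its ratios were -0.06 and 0.08, and those of another further probe 0.10 and 0.02. Desmin (Des), the intermediate filament of all muscle, gave -0.03 and 0.16.

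Calcium handling genes lay closer to 0, with medians of 0.06 and -0.08 over 5 measured members and 0.07 and -0.04 over the 4 without Pvalb. Pvalb, the parvalbumin that buffers calcium in fast fibres, was the exception. Only the neu tumour of pair 2 was well above background for its probe. Levels were 5.89 and 5.72 in the Cdc25a;neu tumours, against 5.86 and 6.78 in the neu tumours, and the signal was at least 1.85-fold lower in the Cdc25a;neu tumour of pair 2 (fitted ratio -1.06; limma adjusted p = 0.673 over both pairs). It is the 1 member that passed the filter through the arrays of pair 2 alone.

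Ryr1, the calcium release channel, was at 7.45 and 7.13 in the Cdc25a;neu tumours, against 7.43 and 7.36 in the neu tumours. The genotypes overlapped, and the ratios of 0.00 and 0.05 on the pair 1 arrays and -0.30 and -0.16 on those of pair 2 averaged -0.10 ± 0.18 (SD, n = 2; limma adjusted p = 0.748). Its other probes gave -0.05 and 0.00, and -0.24 and 0.13. Atp2a1, the calcium pump of fast fibres, was at 6.99 and 6.71 in the Cdc25a;neu tumours, against 6.90 and 6.55 in the neu tumours. It was slightly higher in the double-transgenic tumour of both pairs, at 0.07 and 0.10 on the pair 1 arrays and 0.20 and 0.13 on those of pair 2 (mean 0.12 ± 0.06, n = 2; limma adjusted p = 0.564, the lowest of the members). Its other probe gave 0.09 and -0.24, so the direction in pair 2 depends on the probe. Cacna1s, the voltage sensor of the channel complex, gave 0.06 and -0.08, and the pump regulator Sln gave 0.16 and 0.00.

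All 4 measured genes of energy supply and oxygen storage were lower on both arrays of pair 2, against 31.6% of all genes, and their median was 0.00 in pair 1 and -0.71 in pair 2. Eno3, the muscle enolase of glycolysis, was at 6.63 and 6.73 in the Cdc25a;neu tumours, against 6.87 and 7.99 in the neu tumours. Both double-transgenic tumours lay below both neu tumours. Among the members 2-fold lower on both arrays of pair 2, Eno3 had the lowest pair 1 ratio. It gave -0.28 and -0.18 on the arrays of pair 1 and -1.41 and -1.11 on those of pair 2. That is 2.40-fold lower in pair 2 (mean -0.75 ± 0.73, n = 2; limma adjusted p = 0.572).

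Pgam2, the muscle phosphoglycerate mutase, gave 0.01 and -0.93, outside the 2-fold limit by little. Creatine kinase (Ckm) gave -0.01 and -0.49, and a further probe described as creatine kinase 0.03 and 0.03. Myoglobin (Mb) was at 7.83 and 7.77 in the Cdc25a;neu tumours, against 7.75 and 8.0 in the neu tumours. These levels overlapped, at -0.05 and 0.20 on the arrays of pair 1 and -0.29 and -0.16 on those of pair 2 (mean -0.08 ± 0.22, n = 2; limma adjusted p = 0.836). The sole transcription factor of the list, Myf6, which is kept on in mature fibres, was at 7.43 and 7.15 in the Cdc25a;neu tumours, against 7.29 and 7.10 in the neu tumours. It gave 0.07 and 0.21 on the pair 1 arrays and 0.10 and 0.01 on those of pair 2 (mean 0.10 ± 0.06, n = 2; limma adjusted p = 0.622).

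Grouped by fibre type, the 12 fast isoforms other than Pvalb had a median ratio of 0.04 in pair 1 and -0.99 in pair 2. Of these, 5 of the 11 with a value on both arrays of pair 2 were 2-fold lower, against 0.418% of all genes. The 4 slow isoforms (Mybpc1, Tnnt1, Tnni1 and Tnnc1) had medians of 0.10 and 0.00, with pair 2 ratios between -0.23 and 0.04 and none 2-fold lower. The linear signal summed over those 12 fast isoforms was 1808 and 2077 in the Cdc25a;neu tumours of pairs 1 and 2, against 1863 and 8885 in the neu tumours. Over the slow isoforms it was 430.9 and 376.6 in the Cdc25a;neu tumours, against 404.8 and 385.9 in the neu tumours. The high level in the neu tumour of pair 2 was thus measured in the fast sum, in which Myh4 weighs heavily, and not in the slow one. The fast values include Myh4, whose probes were recognised after their values had been seen, and are not given without it. Some fast isoforms were not low in pair 2, with Myh1 at 0.13, Atp2a1 at 0.17 and Myh2 at -0.25. The slow probes were dim, averaging 6.42 to 6.82. For Tnnc1, each tumour of pair 2 was well above background on 1 array only. The difference between the fast and slow groups was not tested, and the fast and slow labels are textbook assignments.

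**Figure D3:**
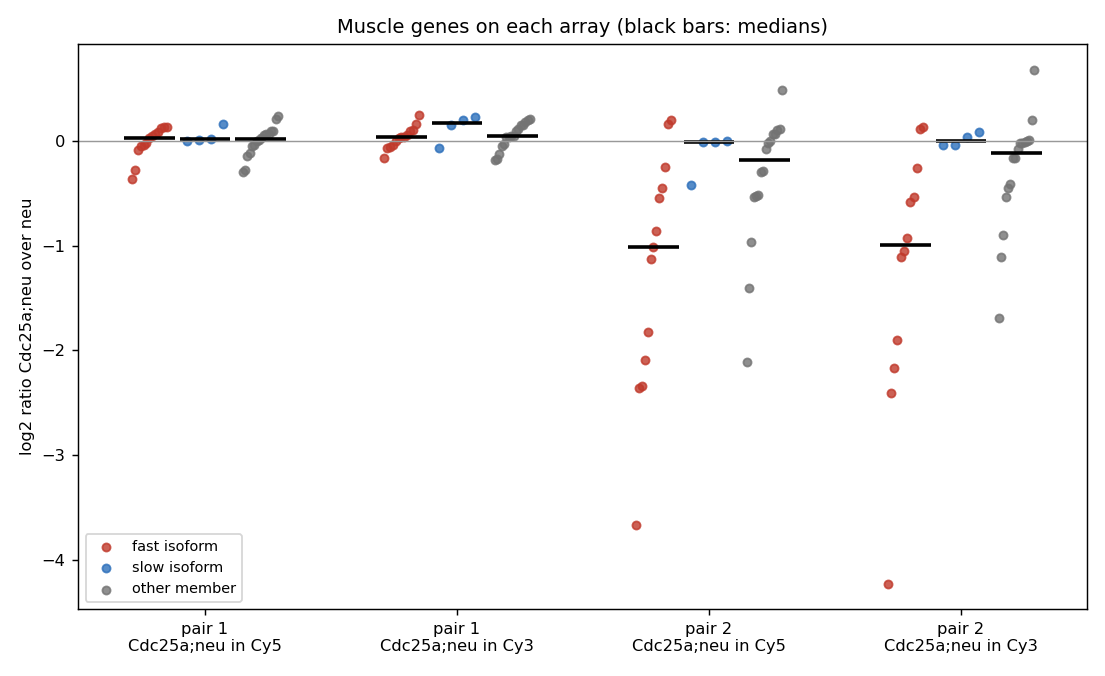
The log2 ratio of Cdc25a;neu over neu of each muscle gene on each of the 4 arrays, with the dye of the Cdc25a;neu tumour under each array. Fast isoforms are red, slow isoforms blue and other members grey, and black bars are medians. On both arrays of pair 2 the red points reach below -3.6 while the blue points stay above -0.5, and on both arrays of pair 1 every point lies between -0.4 and 0.3.

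Signal strength limits these values. The brightest member averaged 9.21, the dimmest 6.08 and the median member 6.82 on the log2 scale, against a median of 7.32 for all genes and a floor of 5.64 that the normalization adds. Ratios of dim probes are drawn toward 0 by that floor. In the scanner's own ratio, without the floor, pair 2 gave -3.17 for Myl1, -2.70 for Tnni2, -2.09 for Myot, -2.01 for Pgam2 and -1.87 for Mylpf. By that ratio 12 members were 2-fold lower on both arrays of pair 2, against 0.673% of all genes, the same 8 (Pvalb included, with no reliable size) plus Mylpf, Actn3, Myot and Pgam2. Myh4, bright in the neu tumour, moved less, to -4.22.

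**Figure D4:**
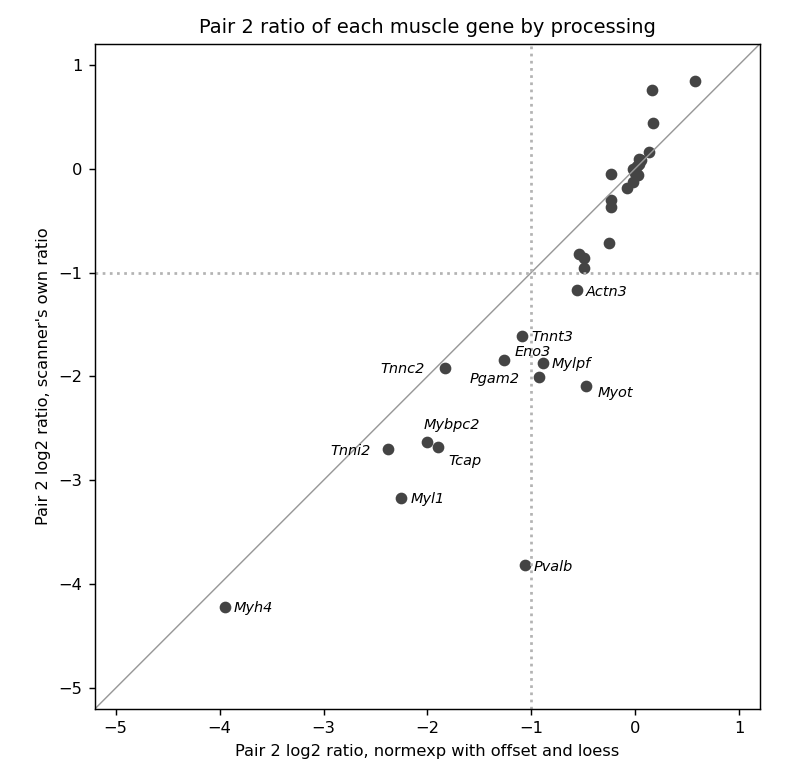
Ratio of each muscle gene in pair 2 (log2 Cdc25a;neu over neu) with background correction, floor and loess on the horizontal axis and as the scanner software reported it on the vertical axis. The diagonal marks equality and dotted lines mark 2-fold. Dim genes such as Myot and Pgam2, and Pvalb, whose Cdc25a;neu signal was not well above background, lie well below the diagonal, while Myh4 (-3.95 and -4.22) lies near it.

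Other muscle genes, from lists chosen with these results known, were mostly near 0. Of 49 further skeletal muscle genes 33 were measured, and their median was 0.03 in pair 1 and -0.03 in pair 2. Only Apobec2, a deaminase family member of muscle, was 2-fold lower on both arrays of pair 2, at 0.04 and -1.08, which is 1 of 32 against the 0.418% of all genes. The M-band protein Myom2 gave 0.03 and -0.70 and the small muscle protein Smpx 0.05 and -0.60, while the 3 brightest genes gave -0.03 and -0.17 (Smyd1), -0.02 and -0.04 (Jph1) and -0.13 and -0.34 (Pfkm). The 18 measured genes of slow fibres and heart had medians of -0.01 and 0.04, with the brightest at 0.13 and 0.56 (Actc1), -0.19 and 0.09 (Tpm3) and 0.31 and 0.59 (Myl3). The 17 genes of muscle stem cells and myogenic factors had medians of 0.01 and 0.09. For the brightest of them the ratios of pair 1, then pair 2, were 1.05 and 1.52 for Ncam1, 0.15 and 0.47 for Chrne and -0.05 and -0.07 for Myod1. No gene of these lists passed limma's test after adjustment.

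Most markers of fat, a tissue that adjoins the gland, were lower in the Cdc25a;neu tumour of both pairs. In pair 1 the muscle genes lay near 0. The 20 adipocyte genes had median ratios of -0.42 in pair 1 and -0.71 in pair 2, and 4 and 6 of them were 2-fold lower on both arrays, against 0.288% and 0.418% of all genes. Their summed linear signal was 7247 and 8146 in the Cdc25a;neu tumours of pairs 1 and 2, against 13510 and 25880 in the neu tumours. The neu tumour of pair 2 was thus the highest in this sum too, in which Fabp4 weighs heavily. The median level was 7.76 and 7.74 in the Cdc25a;neu tumours, against 8.02 and 8.62 in the neu tumours. On both arrays, 13 genes were lower and 4 higher in pair 1, against 28.1% and 29.1% of all genes. In pair 2, 15 were lower and 3 higher, against 31.6% and 34.8%. Cd36, Lipe and Adrb3 were higher in both pairs, at 0.88 and 0.57, 0.16 and 0.24, and 0.11 and 0.16. Fabp4, the fatty acid binding protein of fat cells, was at 9.72 and 10.62 in the Cdc25a;neu tumours, against 12.08 and 13.68 in the neu tumours. The next brightest were the triglyceride lipase Pnpla2, at -0.47 and -0.67, and the acyltransferase Dgat2, at -0.52 and -0.03. The part of tissue composition in the muscle values was not tested.

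Medians of the other lists were as follows. Smooth muscle and myoepithelium gave -0.05 in pair 1 and 0.10 in pair 2, luminal epithelium 0.06 and -0.12, fibroblasts -0.21 and 0.16 and endothelium 0.03 and 0.12. Macrophages gave -0.22 and 0.39, lymphocytes 0.01 and 0.02, nerve sheath -0.03 and 0.04, and brown fat -0.03 and -0.12. None of these medians was as low in pair 2 as those of the fast isoforms or the adipocyte genes. In the order of brightness, Cox7a1, Cidea and Ppargc1a of brown fat gave 1.17 and -0.36, -0.19 and -0.06, and -0.16 and 0.05. Of the 10 brown fat genes, Cox8b alone was 2-fold lower on both arrays of pair 2, against 0.418% of all genes. It gave -1.03 and -1.82, and Ucp1 gave -0.12 and -0.80. On both arrays of pair 2, 5 of these genes were lower and 2 higher, against 31.6% and 34.8% of all genes. Of fibroblasts, Col1a1 gave -0.36 and 1.60, Col3a1 -0.38 and 0.07 and Col1a2 -0.14 and 1.32. Of endothelium, Robo4 gave 0.11 and 0.19, Emcn -0.08 and 0.31 and Flt1 -0.16 and 0.26. Of macrophages, Lyz2 gave -0.45 and 2.03, Cd14 -0.58 and 1.06 and Csf1r 0.01 and 0.20. Of lymphocytes, Cd3e gave 0.07 and 0.09 and Ms4a1 0.04 and -0.05. Of nerve sheath, Mag gave -0.06 and 0.04, S100b 0.02 and 0.61 and Pmp22 -0.27 and 0.75. The brightest luminal genes were the milk protein Csn3, at 0.11 and -0.66, and the keratins Krt18 and Krt8. Over the 4 tumours Krt18 lay at 14.30 to 14.61 and Krt8 at 13.79 to 13.96. Not all genes of this list were bright. The keratin Krt19, Foxa1 and Cldn4 were dim, averaging 6.72, 6.12 and 6.98.

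**Figure D5:**
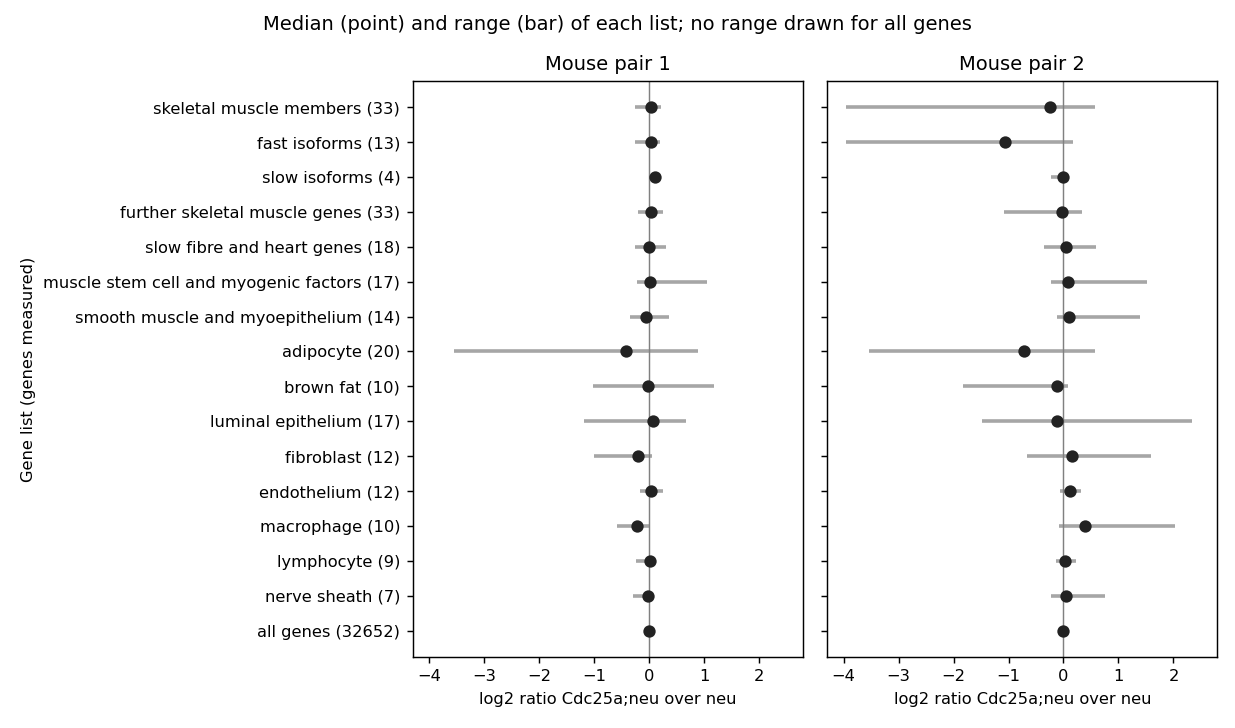
Median (point) and range (bar) of the log2 ratios of Cdc25a;neu over neu for each gene list, with the number of genes measured in brackets, in pair 1 on the left and pair 2 on the right. In pair 2 the fast isoforms (-1.06 with Pvalb, -0.99 without) and the adipocyte genes (-0.71) have the lowest medians, and in pair 1 the adipocyte genes (-0.42) do.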

How the data were processed

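Mean spot intensities, local background, processed intensities and log10 ratios of red over green were taken from the deposited scanner output of Agilent Feature Extraction 7.5.1, per the file headers. The submitters' processing notes name version 7.2. The authors' deposited value table is on the natural log scale (slopes of 2.27 to 2.29 against the scanner's log10 ratio, where 2.30 marks natural logarithms), and its centring and normalization are not given in the sources used here. Its column medians were 7e-04 to 0.0209. The direction of each ratio came from the dyes in the labels.

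Mean intensities were background-corrected with normexp (offset 50, whose log2 is 5.64) and loess-normalized within arrays (limma 3.58.1, R 4.3.3), with control spots at weight 0 and outlier-flagged spots left out. Dye-swapped arrays were turned to one direction, spots of a probe averaged, and each gene represented by its brightest kept probe, with array and accession names before descriptions. The 2 arrays of a pair were averaged, and their mean over the 2 pairs was compared with 0 in limma (lmFit, eBayes), two-sided and with Benjamini-Hochberg adjustment over 32649 genes. A pair alone has no test, and its calls require 2-fold in the same direction on both arrays. Levels came from loess and Aquantile normalization of separate channels. No slide held more than 1 array, which leaves no batch of slides to test, and the number of arrays limits the precision. The steps were tested on simulated data.

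The members and all gene lists were chosen with earlier results of these data known. The pairing is that of the hybridisations, since both tumours of a pair share their arrays, and lies inside each ratio. Values in every tumour are given for the 2 brightest kept members of each role group and the 4 members with the largest ratio in each pair, and the 3 brightest genes of each other list described are named, except 1 that is not reported here. Alternatives were the scanner's ratio, processed signals, median centring, no background correction, the value table, other filters and probe rules, each array left out, other variance models and units, and other member sets.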

Additional observations from a re-analysis of the deposited data

How the results depend on the processing

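The named members' mean ratios kept direction and call in 200 recomputations, 7 gained a call and 1 turned. Those 8 came with median centring of each array in place of loess. With that setting limma called 937 genes and 8 members, against 0 in the loess fit, and 12 members at an unadjusted p under 0.05. Myh4 then averaged -1.92, Myl1 -1.11, Tnni2 -1.07, Tcap -0.91, Tnnc2 -0.89, Mybpc2 -0.83 and Eno3 -0.68 and passed, as did Pvalb, while Mb turned to 0.02. The medians were 0.07 in pair 1 and -0.45 in pair 2. The members that passed there still differed mainly in pair 2, such as Myh4 at -0.07 and -3.76 and Mybpc2 at 0.16 and -1.82. The prior degrees of freedom that limma estimated were 104 there and 1.72 with loess. A high prior replaces most of a gene's own spread between pairs by a spread common to all genes. These calls are thus no sign that a difference recurred in both pairs. Why the prior differed was not tested. Counting the 4 arrays as units, which treats dye swaps as replicates, gave 903 genes and no member past the test (3 members at an unadjusted p under 0.05). No genes passed in the fit of separate channels per mouse with no replicate block (0 genes, 1041 at an unadjusted p under 0.05, lowest adjusted p 0.0812), and the pairing changed no other call.

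The median of the members lay farther from 0 in 3 other settings. It was 0.12 in pair 1 and -0.72 in pair 2 with the scanner's ratio, 0.13 and -0.73 with processed signals and loess, and 0.10 and -0.78 with the authors' value table. It was -0.48 in pair 2 for members found by the array's own or former gene name alone, with 5 members 2-fold lower, -0.47 without the members named by description, with 7, and -0.24 without Pvalb, with 7. Those member sets were chosen after seeing the data. Leaving out each array in turn gave pair 1 medians of 0.02 to 0.05, pair 2 medians of -0.42 (without the array of pair 2 that has Cdc25a;neu in Cy3) to -0.21, and 8 to 9 members 2-fold lower. Over all processing settings, 6 (no background correction) to 12 members were 2-fold lower on both arrays of pair 2. Adjusted p for Myh4 ranged over the alternatives between 1.98e-10 (median centring) and 1. Members near the floor are the least certain.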
